A study of Rattus norvegicus with 98 samples.

Results

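A single instillation of 400 mM formaldehyde into the nose of the rat was compared with instillation of water, 6 h later, across 14217 genes of the nasal epithelium. The comparison used the 4 arrays of formaldehyde animals and the 4 arrays of water animals, 8 of the 98 arrays of the series, chosen by the dose, route and time in their labels, and every probe set other than the array's own controls. Messenger RNA was measured on Affymetrix Rat230_2 arrays, 1 array per rat, in male F344/NCrl rats of 8 weeks. Both instilled groups received 40 ul of liquid per nostril, once, with distilled water as the vehicle, so handling and liquid were common to them. The other rats of the series inhaled air or formaldehyde with the whole body, among them 4 rats at 15 ppm and 4 in air that were also collected at 6 h and hybridised in the same later set of 16 arrays. Proteases freed the cells from level II of both nostrils, over the nasoturbinate and the lateral meatus, after the maxilloturbinate and the olfactory epithelium had been removed. The labels describe the cells as mainly transitional with some respiratory epithelium, and no sorting of cells is described.

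Formaldehyde is a small electrophile that joins to protein thiols and amines and crosslinks protein to DNA at the surface it reaches first. In injured epithelium, interleukin-1, tumour necrosis factor and microbial or damage receptors converge on NF-kappaB, a transcription factor held in the cytoplasm by inhibitor proteins and released when they are degraded. Its targets include chemokines, which attract neutrophils and monocytes through receptors on those cells, and the inhibitors themselves, which close a feedback loop. Misfolded protein is answered by heat shock factors, which raise cytosolic chaperones, and electrophiles by NRF2, which raises thiol and haem enzymes.

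Values are the deposited log2 intensities, so a difference of 1 is a 2-fold change of signal. Values by animal are listed in the order 365, 369, 372 and 374 for formaldehyde and 352, 354, 355 and 356 for water. A gene was called where the limma test gave an adjusted p under 0.05 over all 31042 probe sets, and SE is the standard error of that model. The model pools the spread over all 24 groups of the series. Its SE and p therefore do not measure the spread of the 8 instilled animals alone. Across probe sets the formaldehyde arrays correlated with each other at 0.9782 to 0.9885, the water arrays at 0.9890 to 0.9940, and arrays of different groups at 0.9657 to 0.9817. The absorbance of the RNA given in the labels (OD260) was 2.418 ± 0.526 (SD, n = 4) after formaldehyde and 3.689 ± 0.179 after water, lower in every formaldehyde animal (difference -1.271, exact permutation test, two-sided p = 0.0286, the smallest 4 against 4 animals allow). The RNA integrity number was 8.325 ± 0.050 and 8.050 ± 0.370 (n = 4 each, exact permutation test, two-sided p = 0.114). The part of RNA yield in the results below was not tested.

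Formaldehyde changed 3734 genes, 26.3% of those measured, with 1585 rises (11.1%) and 2149 falls (15.1%). Each count of a gene list below is to be read beside these shares of all genes. Counted over probe sets, 22.2% changed (9.83% rose and 12.4% fell), and in 18.7% the groups did not overlap. Falls were more frequent and rises were larger: 298 rises and 129 falls reached 2-fold, 83 rises and 3 falls reached 4-fold, and 34 rises and 0 falls reached 8-fold. The median change was -0.0024 over all genes, 0.48 among the rises and -0.47 among the falls. The balance of directions moved with the scaling, to 2020 rises and 1493 falls after cyclic loess normalization. With the spread estimated from the 8 instillation arrays alone, in place of all 98, 900 rises and 1226 falls were called. Of the 332 genes described, 54 lost their call in that fit. Lcn2, Ccl9, Il10, Casp4, Sprtn, Aldh4a1, Fdft1, Insig1, Cldn3, Sel1l, Pgam1 and Mthfd1 were among them. In 1089 of the rises and 1391 of the falls the 4 formaldehyde animals lay wholly beyond the 4 water animals. Over all genes, called or not, 10.3% had every formaldehyde animal above every water animal and 12.6% had every one below. In bulk tissue, fewer cells of a type and less RNA per cell cannot be told apart.

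**Figure D1:**
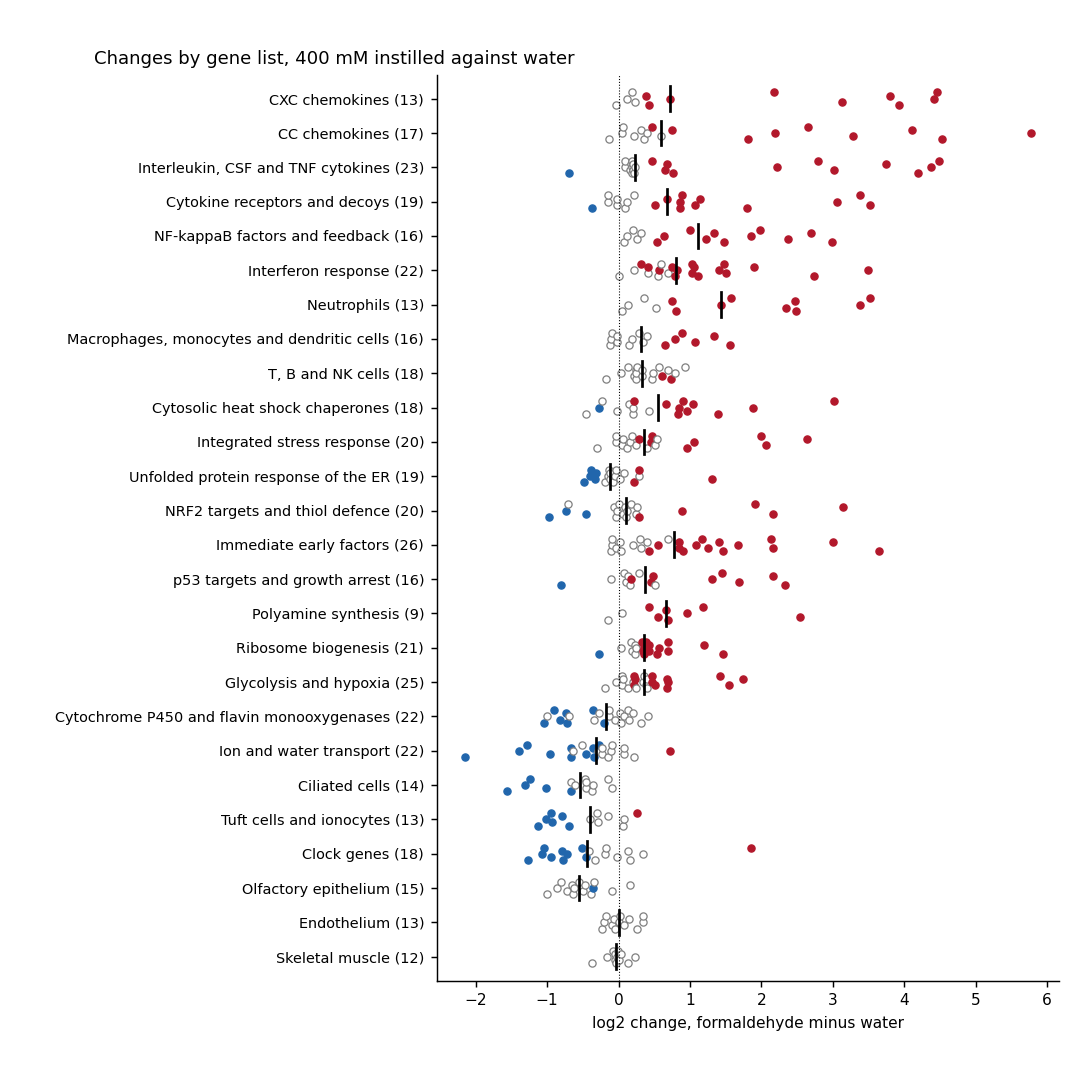
Log2 change after instillation of 400 mM formaldehyde, relative to water, for every measured gene of 26 gene lists (rows, with the number of genes in brackets). Each point is a gene, filled red for a called rise, filled blue for a called fall and open where the test was not passed, and the bar marks the list's median. Chemokine, cytokine and neutrophil lists reach above 3, as do the interferon, immediate early, NRF2 and heat shock lists. Ion transport, ciliated cell and clock genes lie mostly below 0.

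Of 13 CXC chemokine genes 9 rose and the other 4 were not called, beside 11.1% of all genes that rose and 15.1% that fell, and their median change was 0.72. Cxcl1, which engages the neutrophil receptor CXCR2, read 11.35, 11.03, 10.73 and 11.61 after formaldehyde and 7.37, 5.99, 7.28 and 6.27 after water. Cxcl2, a second ligand of that receptor, read 11.16, 12.07, 12.60 and 12.97 against 8.26, 7.93, 7.76 and 7.20. Both groups were wholly apart for each gene, with animal 374 highest, and the increases were 21.9-fold (log2 4.45, SE 0.44, adjusted p = 3.92e-13) and 21.3-fold (log2 4.41, SE 0.68, adjusted p = 4.25e-07). Cxcl3, another such ligand, rose 4.54-fold (8.43, 9.10, 8.90 and 9.52 against 6.74, 6.81, 6.64 and 7.03, adjusted p = 2.2e-23), with 2 further probe sets that rose by 2.17 and 2.04 and 2 that changed by 0.06 and 0.14 without passing the test. Cxcl6 read 8.26, 8.28, 9.61 and 7.78 against 5.12, 5.64, 5.13 and 5.52, a rise of 8.75-fold that was highest in animal 372.

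The CXC chemokines that interferon induces and that attract T cells behaved less evenly. Cxcl10 read 9.27, 7.36, 8.74 and 10.28 against 4.53, 5.38, 4.87 and 5.66. Cxcl11 read 8.46, 6.24, 8.07 and 10.52 against 4.11, 4.24, 4.38 and 4.84. All formaldehyde animals were above all water animals, yet animal 369 reached only 7.36 and 6.24 while animal 374 reached 10.28 and 10.52. The mean increases were 13.9-fold (adjusted p = 8.92e-10) and 15.2-fold (adjusted p = 1.31e-10). Cxcl9, the third of these ligands, rose by 0.72 on the log2 scale, with a further probe set at 0.39 that was not called. Cxcl14, made by resting epithelium, did not pass the test (log2 change 0.23, adjusted p = 0.599).

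Of 17 CC chemokine genes 9 rose and the other 8 were not called, with a median of 0.60. Ccl2, the main attractant of monocytes, had the largest increase of any gene, from 4.92, 5.57, 5.26 and 5.84 in the water animals to 10.08, 11.80, 10.96 and 11.85 after formaldehyde. Ccl7, which shares the monocyte receptor CCR2, read 7.25, 9.06, 6.95 and 9.09 against 3.91, 3.78, 4.00 and 4.24. For Ccl7 animals 369 and 374 stood well above animals 365 and 372, and all 4 were beyond the water animals. The pooled limma fit gave a log2 change of 4.10 (SE 0.24, adjusted p = 1.27e-23), which does not measure the spread of these 4. Ccl3 and Ccl4 encode chemokines made mostly by leukocytes. Ccl3 read 10.11, 11.54, 11.76 and 12.66 against 7.20, 7.26, 6.96 and 6.55. Ccl4 read 8.22, 9.63, 9.06 and 10.83 against 6.32, 6.29, 5.99 and 6.03. In both, animal 365 was lowest, animal 374 highest, and the groups did not overlap. Ccl20, made by epithelium and read by dendritic and Th17 cells through CCR6, was highest in animal 365 instead (11.83, 10.80, 11.35 and 11.36 against 9.13, 8.96, 8.91 and 9.56, 4.58-fold, adjusted p = 1.47e-06). Ccl6, a chemokine of rodent macrophages, rose 6.29-fold. Ccl5 lay higher in every formaldehyde animal without passing the test (log2 0.40, adjusted p = 0.257).

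**Figure D2:**
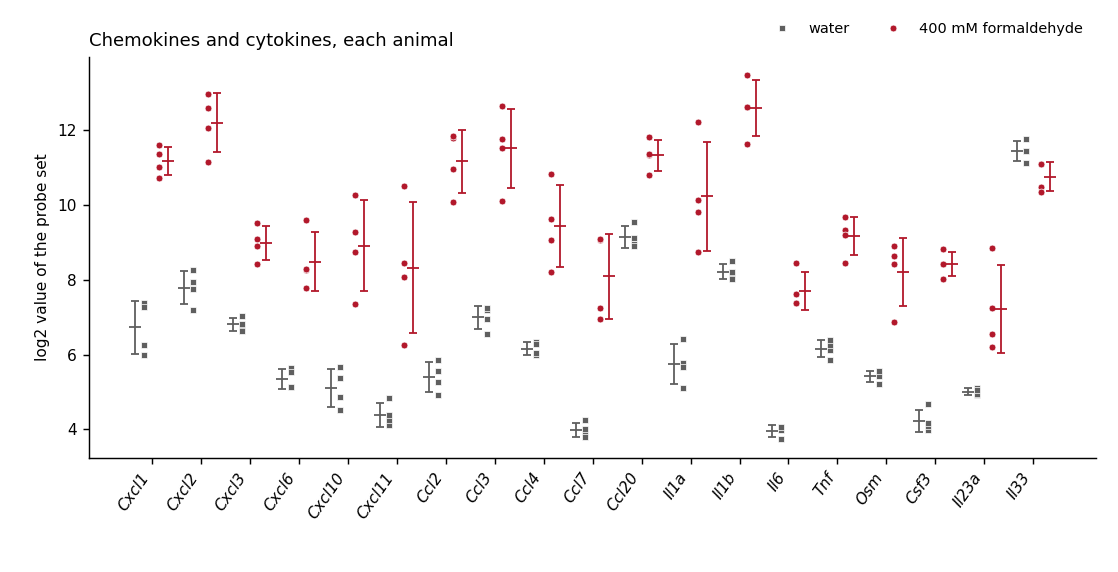
Deposited log2 values of 18 chemokine and cytokine genes that rose and of Il33, which fell, in each of 4 water animals (grey squares) and 4 formaldehyde animals (red circles). The line with caps gives the mean and SD of a group; the groups do not overlap for any gene shown, and the spread among formaldehyde animals is widest for Cxcl11 (6.24 to 10.52) and narrow for Csf3 (8.02 to 8.83).

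The promoters of Cxcl1, Cxcl2, Nfkbia and Nfkbiz, which rose together, are shown because each holds a match to the NF-kappaB motif close to the start of the gene. Nfkbia encodes the inhibitor IkappaB-alpha and Nfkbiz a nuclear relative that acts with NF-kappaB on a second wave of targets. The sequences run from 250 bases before to 50 after the gene start, 5′ to 3′ on the gene's strand, from the RefSeq promoter table of the GRCr8 build, with every match to the NF-kappaB motif on either strand in capitals. They lie at chr14:17479272-17479571 (minus strand, Cxcl1), chr14:17467206-17467505 (minus strand, Cxcl2), chr6:78597023-78597322 (minus strand, Nfkbia) and chr11:58251471-58251770 (plus strand, Nfkbiz).
Cxcl1: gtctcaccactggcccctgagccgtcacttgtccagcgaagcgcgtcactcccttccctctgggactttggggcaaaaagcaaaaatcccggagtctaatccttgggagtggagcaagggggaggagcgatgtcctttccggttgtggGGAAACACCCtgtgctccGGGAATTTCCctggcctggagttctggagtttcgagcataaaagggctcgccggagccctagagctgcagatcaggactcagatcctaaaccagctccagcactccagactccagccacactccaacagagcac
Cxcl2: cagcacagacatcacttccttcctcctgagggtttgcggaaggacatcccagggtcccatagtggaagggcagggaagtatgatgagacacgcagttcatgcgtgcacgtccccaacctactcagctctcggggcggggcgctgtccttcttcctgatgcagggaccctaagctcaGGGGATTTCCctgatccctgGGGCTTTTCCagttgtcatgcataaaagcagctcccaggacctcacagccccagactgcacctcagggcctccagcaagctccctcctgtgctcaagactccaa
Nfkbia: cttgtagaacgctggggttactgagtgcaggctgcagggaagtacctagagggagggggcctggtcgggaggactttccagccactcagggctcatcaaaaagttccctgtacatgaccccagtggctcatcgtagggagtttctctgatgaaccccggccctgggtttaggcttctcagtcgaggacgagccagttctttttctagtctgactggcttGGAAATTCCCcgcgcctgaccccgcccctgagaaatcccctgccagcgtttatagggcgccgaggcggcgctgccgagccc
Nfkbiz: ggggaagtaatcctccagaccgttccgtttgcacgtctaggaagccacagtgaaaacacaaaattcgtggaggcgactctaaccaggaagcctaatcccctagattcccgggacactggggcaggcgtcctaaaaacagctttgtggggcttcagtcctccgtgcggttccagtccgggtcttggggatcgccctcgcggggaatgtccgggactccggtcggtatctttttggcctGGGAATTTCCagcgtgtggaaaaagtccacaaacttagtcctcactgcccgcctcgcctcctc
Cxcl1 and Cxcl2 each hold 2 matches, which begin at -102 and -84 from the start of Cxcl1 and at -74 and -54 from that of Cxcl2. The match begins at -31 from the start of Nfkbia and at -13 from that of Nfkbiz. Promoters were found for 11 of the 13 CXC genes, and 3 of them held the motif (Cxcl1, Cxcl2 and Cxcl6). Of 12 CC chemokine promoters 2 held it (Ccl9 and Ccl20), of 14 promoters of NF-kappaB factors and feedback genes 5 did, and of all 27457 rat promoters of the same length 1.51% did. A match is a description of letters, and binding was not measured.

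Among interleukins, colony stimulating factors and tumour necrosis factors 11 of 23 genes rose and 1 fell, with a median of 0.23. Il1a and Il1b encode the interleukin-1 ligands that start the epithelial alarm. Il1a read 8.76, 10.15, 9.80 and 12.22 after formaldehyde and 6.42, 5.11, 5.77 and 5.67 after water. Il1b read 11.64, 12.63, 12.62 and 13.47 against 8.13, 8.49, 8.22 and 8.03. In both genes animal 365 was lowest and animal 374 highest, and no formaldehyde animal reached down to the water animals. Il6, the inducer of acute phase proteins, read 7.62, 7.38, 7.38 and 8.46 against 4.07, 3.98, 4.07 and 3.73 (log2 3.75, SE 0.28, adjusted p = 5.27e-19). Csf3, the granulocyte growth factor, was even across animals at 8.42, 8.02, 8.83 and 8.41, against 3.98, 4.08, 4.16 and 4.67 (SE 0.32, adjusted p = 3.16e-18). Tnf rose 8.05-fold (9.32, 9.21, 8.46 and 9.69 against 6.13, 5.85, 6.27 and 6.39, adjusted p = 2.93e-12), and animal 372 was lowest. Osm, a leukocyte cytokine related to interleukin-6, rose 6.92-fold, and Il23a, a subunit of interleukin-23, rose 4.63-fold. Smaller rises were measured for the anti-inflammatory Il10 (0.77), for Csf2 (0.68), Lif (0.47) and Tslp (0.65). Tslp was not called without animal 365 (0.38) or, like Il10, with only the 8 instillation arrays in the fit. A further probe set of Csf2 changed by 0.08. Lif was dim, at 4.38 to 4.55 after formaldehyde, where the 25th percentile of all values on the 8 arrays was 4.41.

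Il33 was the 1 cytokine that fell. It encodes an alarmin stored in the nuclei of epithelial cells and released when they die. It read 11.09, 10.49, 10.36 and 11.09 after formaldehyde and 11.78, 11.46, 11.44 and 11.13 after water, so that every formaldehyde animal was below every water animal, 2 of them narrowly (log2 -0.69, SE 0.21, adjusted p = 0.00984). The call was lost without animal 372 (-0.56) or water animal 352 (-0.59), and a further probe set did not pass the test (-0.59, adjusted p = 0.0558). The epithelial cytokine Il18 changed by 0.19 (adjusted p = 0.634).

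Receptors and decoys of cytokines rose in 11 of 19 genes and fell in 1, with a median of 0.68. The decoy receptor Il1r2 and the antagonist Il1rn both limit interleukin-1. Il1r2 read 8.93, 9.37, 10.44 and 10.41 against 6.15, 6.40, 6.16 and 6.91. Il1rn read 7.90, 9.44, 10.45 and 10.50 against 6.35, 6.74, 6.14 and 6.81. Animals 372 and 374 were high and animal 365 low in both, and the increases were 10.4-fold (adjusted p = 1.11e-08) and 8.35-fold (adjusted p = 3.31e-07). Il1r1, the signalling receptor that they oppose, changed by -0.15 (adjusted p = 0.566). Il6st, the shared signal chain of the interleukin-6 family, fell by 0.37 (9.67, 9.82, 10.11 and 9.73 against 10.44, 9.94, 10.36 and 10.08), a call lost when any of 5 single animals (365, 369, 374, 352 or 355) was left out (-0.37 to -0.29). Its 3 further probe sets read -0.27, which was called, and -0.02 and -0.17, which were not. Tnfrsf1b, a receptor of tumour necrosis factor, rose 3.46-fold, Il10ra, the receptor of interleukin-10, 2.20-fold (a further probe set at 0.31 was not called) and Il17ra, that of interleukin-17, 1.82-fold. Ccrl2, a chemerin-binding receptor outside that list, rose 12.9-fold (7.89, 8.45, 9.12 and 10.33 against 5.29, 5.55, 5.14 and 5.06, adjusted p = 2.94e-08).

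NF-kappaB factors and their feedback genes rose in 11 of 16 cases, with a median of 1.11, and all 11 had no overlap between groups. The inhibitors led: Tnfaip3, the ubiquitin-editing enzyme A20, read 10.83, 10.36, 10.47 and 11.85 against 7.99, 8.08, 7.74 and 7.73 (log2 2.99, SE 0.30, adjusted p = 3.11e-13). Nfkbiz rose 6.46-fold on its brightest probe set, with another at 0.29 that was not called, and Nfkbia 3.61-fold. Zc3h12a, a ribonuclease that destroys cytokine messages, rose 5.16-fold (8.81, 9.18, 9.30 and 8.96 against 6.48, 6.79, 6.38 and 7.13). The subunits of the factor itself moved less: Nfkb2 by 1.00, Rela by 0.54, and Nfkb1 by 0.25 without passing the test (adjusted p = 0.195). Birc3, a ubiquitin ligase of the tumour necrosis factor receptor complex, rose 3.96-fold and the inhibitor Nfkbib 1.55-fold. Socs3, which dampens the interleukin-6 receptor, rose by 1.33.

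Innate receptors and acute phase products rose in 7 of 15 genes and fell in 2, with a median of 0.38. Tlr2, a receptor for bacterial lipoproteins, read 8.28, 8.66, 9.21 and 9.80 against 5.86, 6.41, 5.85 and 6.05, a 7.72-fold rise (adjusted p = 9.98e-12). Olr1, a scavenger receptor for oxidised lipoprotein, read 5.23, 5.99, 7.48 and 8.24 against 3.25, 3.39, 3.39 and 3.44 (adjusted p = 4.76e-15), and Clec7a, which binds fungal glucans, rose 3.87-fold. In all 3 genes the animals ranked, from low to high, 365, 369, 372 and 374. Lbp, the endotoxin-binding protein, and Steap4, an iron reductase, fell by 0.86 and 0.68. Myd88, the adaptor of Toll-like receptors, rose 2.29-fold and Lcn2, which binds bacterial iron carriers, 2.69-fold. Lcn2 was not called with only the 8 instillation arrays in the fit. Sod2, the mitochondrial superoxide dismutase, rose by 1.05, while Cd14, the partner of the endotoxin receptor, and Nos2, inducible nitric oxide synthase, did not pass the test (changes 0.34 and 0.15, adjusted p = 0.245 and 0.11).

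In the prostaglandin and leukotriene pathway genes moved in both directions. Of 19 genes 4 rose and 4 fell, with a median of -0.08. Ptgs2, the inducible cyclooxygenase, read 10.15, 10.28, 10.24 and 10.63 against 6.22, 5.61, 5.84 and 6.20 with little spread among formaldehyde animals (log2 4.36, SE 0.52, adjusted p = 2.11e-10). Ptgs1, the constitutive enzyme, changed by -0.28 (adjusted p = 0.461). Hpgd, which inactivates prostaglandins, read 9.30, 9.23, 8.58 and 9.27 against 10.05, 10.01, 10.27 and 10.01 and fell by 0.99 (adjusted p = 1.09e-05). Alox5, which makes leukotrienes, fell by 0.80 (5.31, 5.56, 5.54 and 5.58 against 6.46, 6.42, 6.19 and 6.13), whereas its activating protein Alox5ap rose by 1.03. Hpgds, the prostaglandin D synthase of immune cells, and Ptger2, a prostaglandin E receptor, rose by 1.41 and 0.84, Hpgds not without animal 365 (1.11) or 372 (1.18). Pla2g4a, the phospholipase that frees arachidonic acid, fell by 0.54, and Lta4h, the last enzyme of leukotriene B synthesis, by 0.31. Both falls were lost on leaving out single animals, Pla2g4a for 369, 374, 354 or 355 (-0.52 to -0.46) and Lta4h for 369, 372, 374, 352 or 355 (-0.31 to -0.26).

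Transcripts that mark neutrophils rose in 9 of 13 genes, and their median of 1.43 was the highest of the 58 lists read. Csf3r, the receptor for the granulocyte growth factor, read 7.80, 8.79, 9.72 and 9.74 against 5.65, 5.90, 5.25 and 5.16. Cxcr2, the receptor for Cxcl1 and Cxcl2, read 6.29, 6.94, 7.41 and 7.53 against 4.75, 4.56, 4.35 and 4.57. The order 365, 369, 372, 374 was the same in both, and no animal overlapped. S100a8 and S100a9, the calprotectin subunits, rose 5.54-fold and 5.10-fold, and Mmp8, neutrophil collagenase, rose 2.97-fold. The summed level of the 13 genes was 10.73 to 11.44 after water and 13.06 to 13.96 after formaldehyde on the log2 scale.

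Macrophage, monocyte and dendritic cell genes rose in 6 of 16 cases, with a median of 0.31 and summed levels of 12.98 to 13.25 after water and 13.55 to 14.07 after formaldehyde. Fcgr1a, a receptor for antibody on activated monocytes, rose 2.53-fold, Lyz2 rose by 0.89 and Cd68 by 0.65 (not called without animal 374, 0.58). Itgax, an integrin of myeloid cells, rose 2.96-fold, the monocyte receptor gene Ccr2 by 0.80 and Aif1, a macrophage calcium-binding protein, by 1.07 (0.20 and not called on a further probe set). Csf1r, which defines the lineage, changed by -0.028 (adjusted p = 0.948). T, B and NK cell genes rose in 2 of 18 cases (Cd3e, which was lost on leaving out any 1 of the 8 animals, 0.68 to 0.83, and on a further probe set, 0.37, and Cd2), with summed levels of 10.46 to 10.55 and 10.69 to 11.49. Among leukocyte adhesion molecules 4 of 9 rose (Icam1, Selp, Itgam and Itgb2), Selp with a further probe set at 0.15 that was not called. Icam1, to which neutrophils bind on endothelium and epithelium, read 10.39, 10.17, 10.13 and 10.71 against 8.50, 8.63, 8.41 and 8.75 (3.43-fold, adjusted p = 1.72e-10). Of 13 endothelial markers 0 passed the limma test (median 0.00), and 1, Sele, had an unadjusted p under 0.05. The part of arriving leukocytes in the rises of chemokine and cytokine genes was not tested.

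Interferon response genes rose in 16 of 22 cases, with a median of 0.81. In 10 of the 22 every formaldehyde animal lay above every water animal, beside 10.3% of all genes. Several of the 16 rises therefore had overlapping groups. Isg15, a ubiquitin-like protein, read 11.10, 11.03, 11.57 and 12.20 against 8.17, 8.27, 9.25 and 9.26, a rise of 6.68-fold. Ifit3, an RNA-binding antiviral protein, read 10.36, 10.48, 11.43 and 11.77 against 6.88, 7.71, 7.87 and 7.58, and Oasl, a relative of the oligoadenylate synthetases, read 9.00, 9.07, 9.40 and 9.70 against 6.97, 7.56, 7.71 and 7.31 (3.74-fold, adjusted p = 9.52e-06). In these 3 genes the groups did not overlap, and the water animals differed among themselves as well. Oas1a, an oligoadenylate synthetase, rose 2.79-fold. The regulators Irf7 and Irf1 rose by 1.11 and 1.03. Mx1 was called with overlapping groups (10.16, 8.02, 8.89 and 8.45 against 7.34, 7.55, 8.22 and 8.21, adjusted p = 0.0445, not called without animal 365 at 0.62, 372 at 1.05, 352 at 0.89 or 354 at 0.96), as was Usp18 (9.08, 7.58, 9.05 and 8.99 against 6.40, 6.97, 7.79 and 7.54). The immunoproteasome subunit Psmb8 did not pass the test (0.41, adjusted p = 0.251).

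The Ifit3 promoter is shown because 11 of the 18 interferon response promoters found hold the interferon-stimulated response element on either strand, beside 3.77% of all promoters. Its match, in capitals, begins at position -44 from the gene start and reads on the minus strand of the promoter (GRCr8, chr1:241527076-241527375, plus strand, RefSeq).
Ifit3: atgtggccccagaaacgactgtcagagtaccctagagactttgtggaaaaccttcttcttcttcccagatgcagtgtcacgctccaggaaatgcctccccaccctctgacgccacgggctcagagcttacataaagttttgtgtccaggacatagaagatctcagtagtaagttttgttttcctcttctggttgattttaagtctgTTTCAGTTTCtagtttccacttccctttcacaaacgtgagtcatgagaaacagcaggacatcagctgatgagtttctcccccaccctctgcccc
Among the 13 interferon genes that rose and had a promoter, 7 held the motif.

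Cytosolic heat shock chaperones rose in 10 of 18 genes and fell in 1, with a median of 0.55. Hspb1, a small chaperone that stabilises actin, read 12.62, 12.67, 12.25 and 12.81 against 9.70, 9.28, 9.49 and 9.78 with the groups far apart. Hspa1a, inducible HSP70, read 13.17, 13.11, 12.80 and 13.21 against 11.29, 11.47, 10.93 and 11.05 (3.70-fold, SE 0.19, adjusted p = 3.64e-13). Its partners of the HSP40 family, Dnajb1 and Dnaja1, rose 2.63-fold and 2.05-fold. Dnajb4, of the same family, rose by 0.85. The mitochondrial chaperonins Hspd1 and Hspe1 rose by 0.83 and 0.96, with little spread (12.66, 12.52, 12.22 and 12.65 against 11.53, 11.51, 11.56 and 11.60 for Hspe1). Stip1, which links HSP70 to HSP90, was the exception and fell by 0.27 with overlapping groups (adjusted p = 0.00169).

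The Dnaja1 promoter is shown for its match to the heat shock element, searched on both strands and printed in capitals. It begins 9 bases after the gene start (GRCr8, chr5:60638154-60638453, plus strand, RefSeq).
Dnaja1: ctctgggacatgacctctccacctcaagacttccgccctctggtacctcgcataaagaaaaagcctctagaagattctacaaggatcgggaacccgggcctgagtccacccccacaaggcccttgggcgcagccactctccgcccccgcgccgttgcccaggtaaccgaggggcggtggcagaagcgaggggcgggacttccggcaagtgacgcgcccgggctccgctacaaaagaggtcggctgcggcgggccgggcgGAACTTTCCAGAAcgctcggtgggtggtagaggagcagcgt
The element was found in 5 of 15 heat shock promoters, in 4 of the 9 that rose, and in 0.736% of all promoters.

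The integrated stress response, in which the factor ATF4 is translated when protein synthesis is curbed, rose in 8 of 20 genes (median 0.35). Atf3 read 10.96, 10.73, 9.85 and 10.84 against 7.48, 8.51, 7.58 and 8.25, 6.24-fold higher, and Ddit3, the death-promoting factor CHOP, read 9.53, 9.31, 9.10 and 9.34 against 7.50, 6.84, 7.41 and 7.28, 4.18-fold higher. Ppp1r15a, which restores translation, rose 4.00-fold with a small error (SE 0.14, adjusted p = 6.29e-20), and Atf4 rose 2.09-fold. Slc3a2, the heavy chain of amino acid carriers, and Mthfd2, a mitochondrial folate enzyme, rose by 0.29 and 0.47. The glutathione-degrading enzyme Chac1 changed by 0.40 (adjusted p = 0.314). The unfolded protein response of the endoplasmic reticulum was mixed, with 3 rises and 5 falls among 19 genes and a median of -0.12. Its co-chaperone Dnajb9 rose 2.49-fold, the chaperone Hspa5 rose by only 0.21 (not called without 365, 374, 352, 355 or 356, 0.14 to 0.22), and the factor Xbp1 fell by 0.48 (11.60, 11.58, 11.92 and 11.57 against 12.00, 12.27, 12.15 and 12.16). Herpud1 and Sel1l, of the machinery that removes misfolded protein, fell by 0.40 and fell by 0.39, the chaperone Hsp90b1 fell by 0.34 (not called without water animal 354, -0.27) and the disulfide isomerase Pdia6 fell by 0.31 (not called without animal 374, -0.27).

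NRF2 targets were uneven too, with 5 rises and 3 falls among 20 genes and a median of 0.10. Hmox1, which degrades haem, read 11.64, 11.53, 11.10 and 11.19 against 8.13, 8.19, 8.27 and 8.29, an 8.86-fold rise (adjusted p = 7.95e-19). Srxn1, which repairs oxidised peroxiredoxin, rose 4.49-fold on its brightest probe set, with others at 1.76 (called) and 0.04 (not called), the cystine carrier Slc7a11 3.77-fold and Txnrd1 1.84-fold. Other standard targets did not pass the test: Nqo1, already at 13.08, 12.88, 13.16 and 13.19 in water animals, changed by -0.063 (adjusted p = 0.811), Gclm by 0.25 (adjusted p = 0.357) and Gclc by 0.25 (adjusted p = 0.335). The antioxidant response element TGACNNNGC was found in 4 of 18 promoters of the list, in 0 of the 4 that rose, and in 12.2% of all promoters. The small Maf and BACH factors, which share NRF2's binding sites, rose in 4 of 4 cases: Maff read 9.23, 9.19, 8.53 and 9.20 against 5.96, 6.73, 6.00 and 6.61, Mafk rose 2.78-fold, Mafg by 0.64 and Bach1 by 0.43. Among metallothionein and zinc genes 1 of 8 rose, Mt2A by 0.94. Catalase, Cat, fell by 0.45 (not called without 372, 374, 354 or 356, -0.46 to -0.37, and 0.06 against air in place of water), and the efflux pumps Abcc1 and Abcc4 by 0.74 and 0.98.

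Growth arrest genes linked to p53 rose in 8 of 16 cases and fell in 1, Sesn1 (median 0.37), which fell by 0.80 with a further probe set at -0.34 that was not called. Gadd45a read 11.28, 11.08, 10.89 and 11.48 against 9.00, 9.02, 9.00 and 9.09, 4.46-fold higher, Gadd45b rose 5.05-fold, and the kinase inhibitor Cdkn1a read 10.75, 11.59, 10.82 and 10.75 against 8.94, 9.52, 9.19 and 9.53, 3.21-fold higher. The kinase Plk2 rose 2.74-fold and the cyclin Ccng1 by 0.48. Mdm2, the direct target that closes the p53 loop, changed by 0.074 (adjusted p = 0.67). The death receptor Fas rose 2.47-fold on its brightest probe set, while 2 others changed by 0.11 and -0.08 without passing the test. Of 16 genes for DNA crosslink repair 1 rose (Sprtn, a protease of DNA-protein crosslinks, by 0.45) and 1 fell (Fancl, by 0.31, not called without 372, 374 or 355, -0.28 to -0.19), and the median was 0.01.

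Immediate early factors rose in 15 of 26 cases (median 0.77). Fosl1, an AP-1 subunit of wounded epithelium, read 9.17, 9.04, 7.69 and 9.21 against 5.23, 5.15, 5.00 and 5.12, 12.5-fold higher (SE 0.25, adjusted p = 1.07e-20). Egr2 read 9.30, 8.20, 6.55 and 8.44 against 5.08, 5.30, 5.27 and 4.80 on its brightest probe set, with another at 0.27 that was not called. Animal 372 was lowest in both, at 7.69 and 6.55, and still above every water animal. Egr1 rose by 1.26, Ier3 by 1.40, Myc by 1.09 and Fos by 0.55, Fos with a further probe set at 0.34 that was not called. Csrnp1, a nuclear protein of early responses, rose 4.48-fold and Ier5 2.76-fold, with further probe sets of Ier5 at 0.66 (called) and 0.19 (not called). Jun did not pass the test on its brightest probe set (0.30, adjusted p = 0.324) or on another (0.28), and rose by 0.65 on a further one (adjusted p = 4.76e-06). Phosphatases and Sprouty genes that restrain MAP kinases rose in 6 of 12 cases and fell in 1 (Spry1), led by Dusp2 (4.37-fold) and Dusp5 (3.16-fold). Errfi1, which inhibits the EGF receptor, rose 2.19-fold, Dusp6 by 0.76 and Spry4 by 0.33 (0.09 and not called against air in place of water), and Spry1 fell by 0.73.

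Among ligands and receptors of the EGF family 5 of 12 rose and 2 fell. The ligand Areg read 9.49, 8.87, 7.06 and 8.85 against 3.92, 4.07, 3.84 and 4.45, and Hbegf read 7.86, 8.12, 6.49 and 8.29 against 5.50, 5.66, 5.09 and 5.38. Animal 372 was again clearly lowest in both, and the groups did not overlap. Hbegf rose 4.86-fold (adjusted p = 2.24e-07) and Ereg 2.64-fold (adjusted p = 0.00965, not called without animal 369, log2 1.15). The receptor Egfr fell by 0.67 with overlapping groups (adjusted p = 0.0432), a call lost without 365, 374, 352 or 355 (-0.59 to -0.48). Of its 2 further probe sets 1 was not called (-0.17) and 1 rose by 0.30 (adjusted p = 0.0352), so its direction differed between probe sets. The related receptor Erbb2 fell by 0.76 (-0.42 and not called against air in place of water). The ligand Nrg1 rose by 0.68 on its brightest probe set, with 3 further ones that rose and 4 that were not called (-0.01 to 0.20). The shedding protease Adam17 rose by 0.63 (not called without water animal 356, 0.51), and the ligand Tgfa changed by 0.14 (adjusted p = 0.43). Plaur, the urokinase receptor on migrating cells, read 9.37, 9.45, 9.31 and 9.92 against 5.20, 5.51, 4.71 and 5.49 (adjusted p = 6.35e-16), and Tnfrsf12a, the receptor for TWEAK, read 11.02, 11.47, 10.48 and 11.13 against 7.51, 7.84, 7.57 and 7.93 (9.94-fold, SE 0.19). Plau, urokinase itself, and the anticoagulant receptor Thbd rose by 1.05 and 1.06, Thbd not without 369, 374, 354 or 355 (0.89 to 0.97) or on 2 further probe sets (0.32 and 0.51). Timp1, a protease inhibitor, rose by 1.20, and the metalloproteinases Mmp7, Mmp9 and Mmp10 by 0.48, 0.80 and 0.21. Each of the 3 lost its call on leaving out single animals: Mmp7 for 365, 372 or 355 (0.37 to 0.41), Mmp9 for 374 (0.62) and Mmp10 for 369, 374, 352, 354 or 355 (0.14 to 0.21).

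Death and survival genes rose in 8 of 19 cases and fell in 2, Bik and Bcl6 (median 0.15). Bcl2a1, a survival protein of leukocytes and an NF-kappaB target, read 9.27, 10.13, 10.14 and 11.47 against 6.73, 7.06, 6.71 and 7.06, 10.3-fold higher. Ripk3, the kinase of necroptosis, rose 2.93-fold (8.73, 8.02, 8.36 and 8.64 against 6.56, 7.00, 6.88 and 7.11), and Cflar, which holds caspase-8 back, 2.57-fold. Casp8 itself rose by 0.73 (not called without water animal 352, 0.61), and the inflammatory caspase Casp4 by 0.51. Bik, a death-promoting protein of airway epithelium, fell by 0.61.

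Glycolysis and hypoxia genes rose in 12 of 25 cases (median 0.35). Slc16a3, which exports lactate, read 6.82, 7.91, 9.08 and 8.52 against 6.28, 6.31, 6.35 and 6.45 (3.33-fold, adjusted p = 3.71e-10), lowest in animal 365 and highest in animal 372. The glucose carrier Slc2a1 rose by 0.67, its relative Slc2a3 by 0.68 (0.25 and not called on a further probe set), the glycolytic enzymes Tpi1 and Pgam1 by 0.52 and 0.22 and the vasodilator peptide Adm 2.92-fold. Polyamine genes rose in 7 of 9 cases: Odc1, the entry enzyme, by 0.69, Amd1 by 0.96 and Arg1, arginase, 5.79-fold with overlapping groups (7.60, 8.36, 6.86 and 9.67 against 4.90, 7.08, 5.58 and 4.80). Arg2, the mitochondrial arginase, rose by 1.18, Sat1, which acetylates polyamines, by 0.66 and Azin1, which shields Odc1 from its inhibitor, by 0.43 (2 further probe sets at 0.04 and 0.32 were not called). Ribosome biogenesis genes rose in 14 of 21 cases and fell in 1 (Utp20, by 0.28, not called without 369, 372, 352, 354 or 355, -0.28 to -0.21), with Gnl3 at 2.75-fold and Nop56 at 2.29-fold (10.78, 10.74, 10.04 and 10.63 against 9.29, 9.45, 9.29 and 9.39). Nop58 rose by 0.54, Wdr12 by 0.69, Rrs1 by 0.69 and Polr1c, a subunit of RNA polymerases I and III, by 0.56. Among 26 cell cycle genes 1 rose and 2 fell. Pcna, the replication clamp, rose 2.01-fold, Ccnd2 fell by 1.38 (-0.53 and not called against air in place of water) and Ccnd1 by 0.70, and the proliferation marker Mki67 changed by 0.11 (adjusted p = 0.805).

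The 2 main enzymes of formaldehyde removal did not pass the test. Adh5, which oxidises the glutathione adduct of formaldehyde, read 10.93, 10.56, 10.42 and 10.44 against 10.91, 10.77, 10.95 and 11.07, a change of -0.34 (adjusted p = 0.0735). Aldh2 read 12.65, 12.47, 11.79 and 12.46 against 12.57, 12.80, 12.62 and 12.69 (-0.33, adjusted p = 0.121). Among 19 aldehyde dehydrogenase and related genes 2 rose and 2 fell (median -0.21): Aldh1a1 and Aldh4a1 fell by 0.34 and 0.58, Aldh5a1 rose by 0.40 on its brightest probe set while 2 others changed by -0.35 and 0.02 without passing the test, and Aldh1a3, a retinal dehydrogenase, rose 3.03-fold with overlapping groups. Aldh1a1 was not called without animal 372 (-0.22), nor Aldh5a1 without 365, 374, 354, 355 or 356 (0.35 to 0.40). Of the carbonyl reductases, Cbr1 rose 3.49-fold (11.93, 12.20, 12.29 and 11.95 against 10.12, 10.18, 10.43 and 10.43, adjusted p = 2.06e-11) and Cbr3 by 0.70, while the aldo-keto reductases Akr1c14 and Akr1a1 fell by 1.04 and fell by 0.23, Akr1a1 not without water animal 355 (-0.19). Cytochrome P450 and flavin monooxygenase genes fell in 7 of 22 cases (median -0.17). Por, which passes electrons to every microsomal P450, read 10.92, 11.00, 10.87 and 10.64 against 11.89, 12.01, 11.90 and 11.78, a fall of 1.04 (adjusted p = 1.32e-11), Fmo2 fell by 0.90 and Cyp2a3, abundant in rat nose, by 0.36. Cyp4b1 fell by 0.82, the retinoic acid hydroxylase Cyp26b1 fell by 0.73 and Cyp1a1, a target of the aryl hydrocarbon receptor, fell by 0.72. Without animal 372, Fmo2 (-0.65), Cyp4b1 (-0.50) and Cyp26b1 (-0.54) were not called and 3 of the 7 falls remained in number. Cyp1a1 was not called without water animal 352 (-0.64) or 355 (-0.65), and Cyp26b1 was not called against air (-0.20) or on a further probe set (0.03). Conjugating enzymes fell in 2 of 23 cases, Gstm2 and the epoxide hydrolase Ephx1, beside 15.1% of all genes. Fatty acid oxidation genes fell in 4 of 15 cases (Cpt1a, Cpt2, Etfdh and, by 1.28, Ehhadh), and in 2 without animal 372 or without water animal 352. Cholesterol genes fell in 5 of 15 cases, Dhcr7 (by 0.67), Sqle (by 0.45), Fdft1 (which fell by 0.54), Lss (which fell by 0.29) and the regulator Srebf2 (which fell by 0.26), and rose in 2, Idi1 and Insig1. Without animal 374 or without water animal 354, 2 of 15 were called falls, and without animal 372, 3 were. Against air in place of water Lss and Srebf2 were not called (0.02 and -0.17), and their further probe sets read -0.21 and 0.08 without passing the test. Srebf2 also lost its call without 365, 374, 354, 355 or 356 (-0.25 to -0.18).

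Ion and water transport genes fell in 10 of 22 cases and rose in 1 (median -0.32). Kcnj1, an inward rectifier potassium channel, read 7.36, 6.68, 7.04 and 5.83 against 8.69, 9.46, 8.58 and 8.78. Its relative Kcnj15 read 12.09, 11.43, 11.67 and 11.74 against 12.87, 13.03, 12.48 and 12.40. Kcnj16 read 10.56, 10.24, 10.06 and 10.82 against 11.83, 11.78, 11.63 and 11.54. No formaldehyde animal overlapped a water animal in any of the 3, and the falls were 2.15 (SE 0.30, adjusted p = 3.35e-08), 0.96 (SE 0.17, adjusted p = 5.76e-06) and 1.28 (SE 0.31, adjusted p = 0.00122). Against air in place of water Kcnj16 was lower by less and not called (-0.55). Of the genes of chloride secretion, Ano1, the apical calcium-gated channel, fell by 1.40 (8.96, 8.77, 7.88 and 8.85 against 10.00, 10.19, 10.06 and 9.79), and Slc12a2, the basolateral cotransporter, by 0.67. The water channel Aqp5 fell by 0.66 (11.21, 11.44, 11.57 and 11.26 against 11.85, 12.30, 11.87 and 12.10). Atp1b1, a subunit of the sodium pump, fell by 0.46. Scnn1a, the sodium channel subunit that draws water from the airway surface, did not pass the test (-0.51, adjusted p = 0.0718).

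Of 14 ciliated cell genes 5 fell, all of them regulators of transcription, with a median of -0.54, and 10 of 14 had every formaldehyde animal below every water animal, beside 12.6% of all genes. Gmnc, which starts multiciliation, read 4.86, 4.84, 5.23 and 4.95 against 6.60, 7.17, 6.02 and 6.35 (log2 -1.56, SE 0.26, adjusted p = 2.98e-06). Rfx2 and Rfx3 encode factors that switch on ciliary genes. Rfx2 read 6.54, 7.32, 7.28 and 6.52 against 7.88, 8.38, 8.25 and 8.12, and fell by 1.24. Rfx3 read 6.48, 5.82, 6.23 and 6.03 against 7.63, 7.41, 7.43 and 7.33, a fall of 1.31, with a further probe set at -0.01. Myb fell by 1.02, and Foxj1, the master factor, by 0.66 with groups that touched (9.00, 9.58, 9.66 and 8.97 against 9.61, 10.35, 9.82 and 10.08, adjusted p = 0.0125). Foxj1 was not called without 365, 374 or water animal 354 (-0.56 to -0.53). The structural genes Tekt1 and Dnai1 lay lower in every formaldehyde animal by 0.47 and 0.45 on average (adjusted p = 0.155 and 0.215). The summed level of the 14 genes was 13.67 to 13.92 after water and 13.37 to 13.57 after formaldehyde.

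Airway transcription factors fell in 4 of 19 cases (median 0.03), beside 15.1% of all genes. Sox2, which maintains airway identity, read 9.78, 9.60, 10.06 and 9.84 against 10.91, 10.90, 10.94 and 10.79, a fall of 1.07 (SE 0.12, adjusted p = 9.21e-11), and 2 further bright probe sets of Sox2 fell by 2.38 and 1.68, while another changed by 0.18. Foxa1, a pioneer factor, fell by 1.07 (5.88, 5.20, 5.57 and 5.36 against 6.56, 6.50, 6.85 and 6.38), and Tox3 fell by 1.67 on its brightest probe set, with 2 others at 0.03 and -0.17 that were not called. Irx3, the other fall, changed by -0.90 (adjusted p = 0.0365), and was not called without 369, 372, 352, 354 or 355 (-0.92 to -0.65) or against air (-0.46), and its further probe sets read -0.75 (called) and -0.02 (not called). Genes of tuft cells and ionocytes, rare chemosensory and ion-transporting cells, fell in 6 of 13 cases and rose in 1 (Plcb2, by 0.26, not without 372, 352 or 356, 0.24 to 0.26). Ascl3 read 9.59, 8.81, 8.96 and 9.03 against 9.96, 10.37, 10.01 and 9.79 and fell by 0.94, Pou2af3 fell by 1.02, Avil by 0.79 and Gnat3, the taste G protein, by 1.13 with animal 365 overlapping the water animals. Against air in place of water Avil and Gnat3 were not called (-0.35 and -0.58). The proton pump subunit Atp6v1b1 fell by 0.95 (-0.30 and not called against air) and the tuft cell kinase Dclk1 fell by 0.70, not called without water animal 352 or 355 (both -0.64) or on 3 further probe sets (-0.56 to -0.02). In the Notch pathway Hey2 and Jag2 fell by 1.09 and 0.82 (7.90, 7.42, 7.52 and 7.82 against 8.76, 8.71, 8.98 and 8.56 for Hey2). Hey1 fell too (by 0.82) and Dll1 rose (by 0.46, not called without 365, 369, 374, 352, 355 or 356, 0.27 to 0.48).

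**Figure D3:**
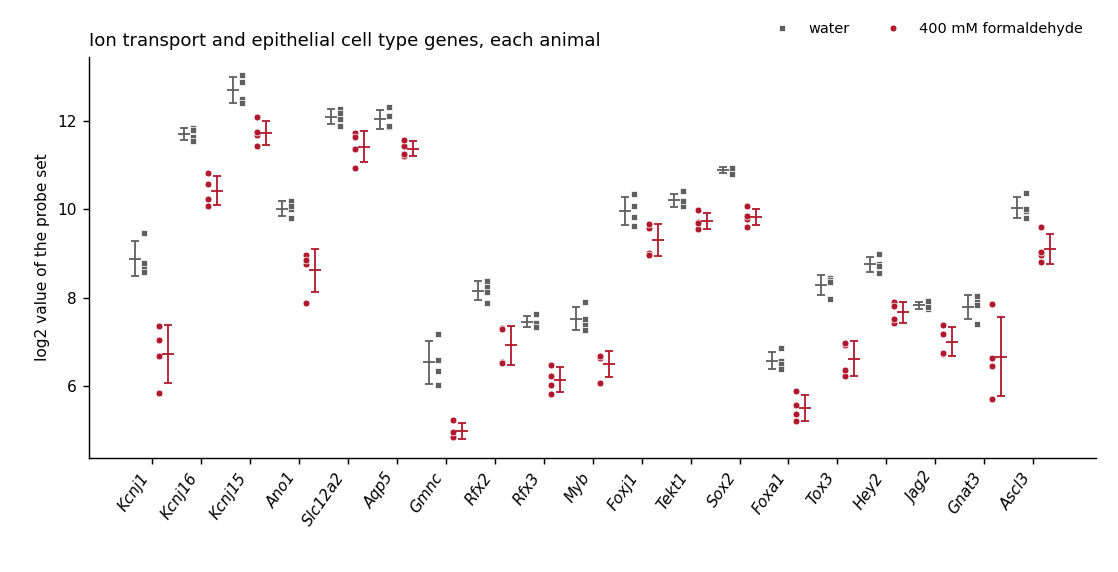
Deposited log2 values of ion transport, ciliated cell, airway transcription factor, Notch, tuft cell and ionocyte genes in each of 4 water animals (grey squares) and 4 formaldehyde animals (red circles), with the mean and SD of each group as a line with caps. Formaldehyde animals lie below water animals for each gene shown except Foxj1, where one water animal reads 9.61 beside formaldehyde animals up to 9.66, and Gnat3, where animal 365 reads 7.85; Tekt1 did not pass the test.

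Clock genes fell in 9 of 18 cases and rose in 1 (median -0.44). The output factors Dbp, Tef and Hlf fell by 1.27, 0.78 and 0.94, and Dbp read 8.13, 8.60, 9.32 and 8.51 against 9.70, 10.07, 10.06 and 9.81. Nfil3, which represses the genes that those 3 activate, read 7.29, 7.76, 7.95 and 8.41 against 5.91, 6.12, 5.93 and 6.03, a rise of 3.61-fold. Per2 fell by 1.07 (8.30, 7.77, 8.21 and 8.45 against 9.45, 9.26, 9.27 and 9.04), Nr1d2 by 0.79 and Cry2 by 0.51, while Per1, Nr1d1 and Bmal1 did not pass the test (-0.33, -0.20 and 0.34). A further probe set of Per2 changed by 0.16 without passing the test, and of 3 further ones of Hlf 2 fell (-1.12 and -1.17) and 1 was not called (0.09). At which time of day animals were collected is not stated in the labels.

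Basal and squamous genes rose in 2 of 23 cases and fell in 1 (median 0.30), beside 11.1% of all genes that rose and 15.1% that fell. Sfn, a stress-induced adaptor of squamous cells, rose 3.27-fold, Ngfr rose by 0.65 and Dst fell by 0.51 (not called without 372 at -0.31 or 352 at -0.42, nor on 2 of 4 further probe sets, at -0.34 and -0.27), while Krt5 and Krt17 did not pass the test (-0.089 and 1.25, adjusted p = 0.858 and 0.167). Of 18 secretory cell genes 4 rose (Reg3g, Tff1, Tff3 and Lyz2) and 1 fell (Cyp2f4, not called without 369, 372, 352 or 355, -0.20 to -0.16). Tff3 was not called without animal 372 (0.28). Reg3g, an antibacterial lectin, read 7.21, 4.86, 8.13 and 6.41 against 3.71, 4.29, 4.36 and 4.78, with animal 369 close to the nearest water animal, and rose 5.17-fold. Muc5ac changed by 0.25 (adjusted p = 0.888), and Scgb1a1, the club cell protein, was low in both groups (5.65, 5.79, 5.90 and 6.00 against 5.28, 5.85, 5.72 and 6.38). Olfactory genes had a median of -0.55 and 1 called fall of 15, with overlapping summed levels (14.06 to 14.77 after water, 13.89 to 14.32 after formaldehyde), and Omp of mature olfactory neurons was present in both groups (9.86, 10.08, 9.90 and 8.64 against 11.15, 9.01, 10.91 and 10.87, adjusted p = 0.244), although the labels say that olfactory epithelium was removed. Stromal genes fell in 1 of 18 cases, Col1a1 by 0.81 (not called without 365, 374 or 355, -0.73 to -0.68, nor on a further probe set, -0.44), and their summed levels did not overlap (14.72 to 15.30 after water, 14.57 to 14.67 after formaldehyde). The part of stromal, olfactory or ciliated cell content in the falls was not tested.

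The 4 formaldehyde animals did not respond alike, and the order depended on the gene group. Animal 365 was lowest in 9 of 11 cytokine receptor genes that rose and in 6 of 9 neutrophil genes, by 0.61 and 0.57 below the mean of the 4. Animal 374 was highest in 7 of 9 CC chemokines and 9 of 11 cytokines, by 0.79 and 0.70 above it. Interferon genes were lowest in animal 369 in 12 of 16 cases. Animal 372, which had the lowest RNA absorbance (1.811), was lowest in 11 of 15 immediate early genes, 12 of 14 ribosome biogenesis genes, 8 of 10 heat shock genes and 6 of 7 polyamine genes. The same animal was highest in 8 of 12 glycolysis genes. Such an ordering describes 4 animals and was not tested.

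**Figure D4:**
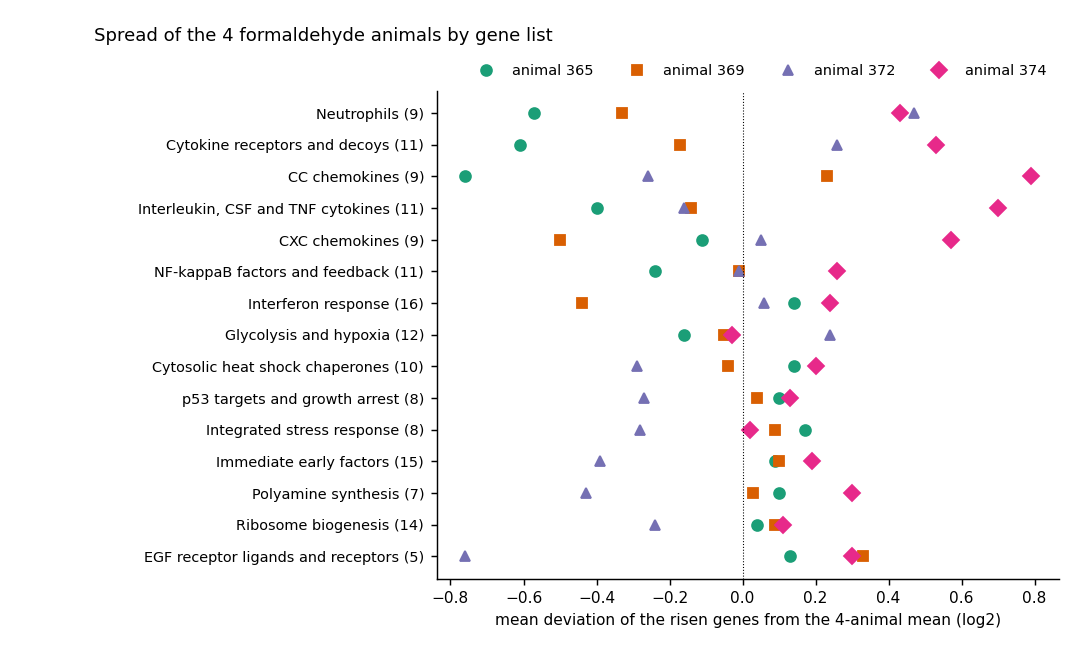
Mean deviation of each formaldehyde animal from the mean of the 4, in log2 units, over the genes of each list that rose (rows, with their number in brackets). Animal 365 lies lowest for neutrophil and cytokine receptor genes, animal 374 highest for chemokines and cytokines, and animal 372 lowest for EGF receptor ligands, immediate early, polyamine and ribosome biogenesis genes.

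A separate set of genes divided the formaldehyde animals in pairs. In 61 genes both animals 365 and 374 read more than 1 below both animals 369 and 372, against 2 to 11 genes for each of the other 5 pairings, and 42 of the 61 were called falls. Dhx36, an RNA helicase, was the most extreme, at 4.67, 8.83, 8.81 and 4.64 after formaldehyde and 8.89, 8.41, 9.39 and 8.81 after water. Other probe sets of such a gene often lacked the gap: of 85 further probe sets, from 43 of the 61 genes, 9 showed it. Dhx36 had further probe sets of both kinds. One showed the gap, at 4.20, 6.97, 6.84 and 3.73 after formaldehyde and 6.83, 6.68, 7.00 and 7.11 after water. Another, of similar level to the first, lacked it. It read 8.89, 8.79, 8.71 and 9.02 after formaldehyde and 8.68, 8.78, 8.74 and 8.72 after water. The calls moved with these animals: with animals 369 and 372 alone, 1048 genes rose and 1637 fell, of which 902 and 1333 were also called with all 4. With animals 365 and 374 alone, 1628 rose and 1908 fell, and 1245 and 1454 of these were among the calls of all 4. Ccnd2, a cyclin of the first growth phase, showed a similar division (7.08, 9.02, 8.71 and 7.41 against 9.62, 9.27, 9.47 and 9.36), so that its fall averages unlike readings.

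How far instillation differed from inhalation was tested as the instillation effect minus the effect of 15 ppm against air at 6 h, in the same fit and with no shared animals. Delivery, vehicle and amount reaching the cells differ between the routes and cannot be told apart. The effects differed in 273 probe sets (0.879%) and 149 genes (1.05%), 103 higher after instillation (0.724%) and 46 lower (0.324%). Of the 103, 100 were called rises of instillation, and of the 46, 44 were called falls. The difference contains the instillation effect itself, so these counts follow largely from the selection and are no separate result. In 9 of the 46, Ccnd2 among them, animals 365 and 374 read more than 1 below animals 369 and 372. The count rested on single animals, with 61 genes without animal 374, 93 without water animal 352, 274 without animal 372 and 254 without animal 369. The lists held 44 of the 103 and 8 of the 46. Cxcl11 rose by 3.93 after instillation and changed by 0.086 at 15 ppm, a difference of 3.84 (95% interval 2.55 to 5.13, adjusted p = 0.000115). Isg15 changed by 0.14 at 15 ppm (difference 2.60, adjusted p = 0.00404), Tnfaip3 by 0.73 (difference 2.26, adjusted p = 0.000591) and Cxcl3 by 0.58 (difference 1.60, adjusted p = 5.28e-09).

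Among genes with large rises by both routes, chosen after their values were seen, the difference did not pass the test for the following. Areg rose by 4.50 after instillation and 4.85 at 15 ppm (difference -0.35, 95% interval -1.82 to 1.11). The differences were 0.24 for Fosl1 (-0.46 to 0.94), -0.22 for Hmox1 (-0.88 to 0.44), -0.23 for Tnfrsf12a (-0.77 to 0.31), 0.059 for Atf3 (-0.84 to 0.96), -0.082 for Ddit3 (-0.67 to 0.50) and -0.27 for Maff (-0.97 to 0.43), each with its 95% interval. None of these 7 differences passed the test, and the intervals reach as low as -1.82, so the routes are not shown to act alike. Osgin1, an NRF2 target, went the other way, rising by 1.43 at 15 ppm and changing by 0.12 after instillation (difference -1.31, adjusted p = 0.00247). Among the falls, Uts2r, the urotensin receptor, fell by 2.48 after instillation (6.24, 6.13, 5.54 and 5.94 against 8.39, 8.67, 8.51 and 8.17) and by 2.13 at 15 ppm (difference -0.34, 95% interval -1.61 to 0.93), whereas Kcnj1 changed by -0.43 at 15 ppm (difference -1.72, adjusted p = 0.0236) and Hey2 by -0.33 (difference -0.75, adjusted p = 0.0114).

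**Figure D5:**
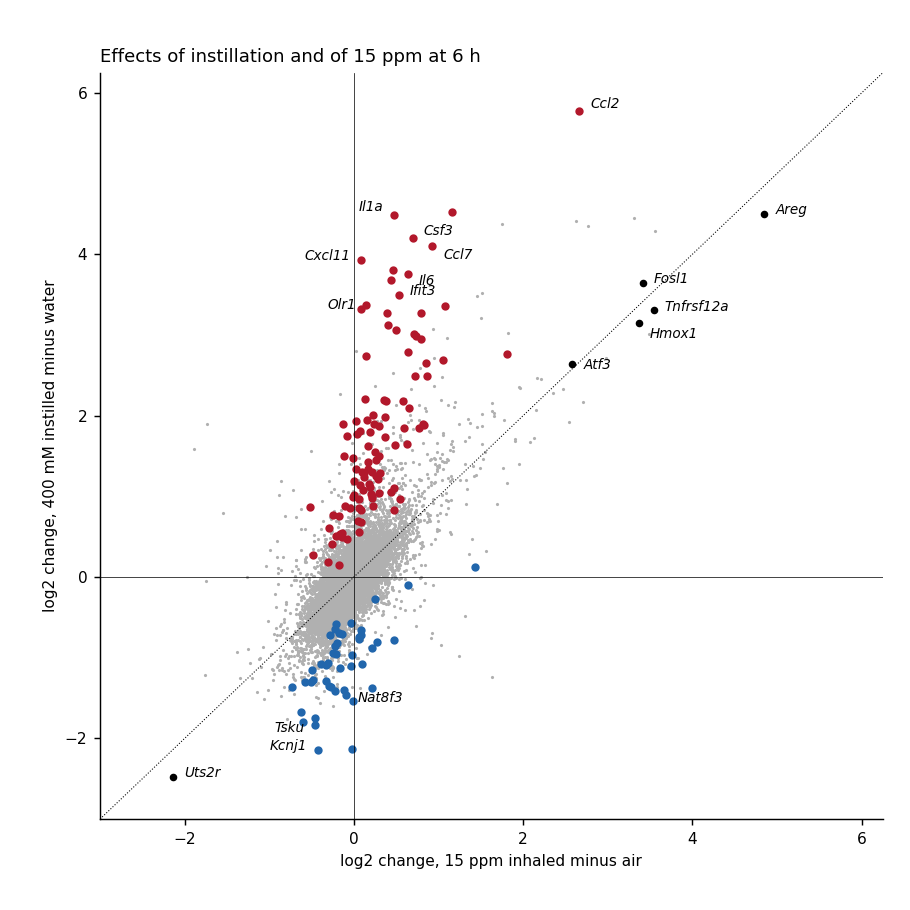
Effect of instilled formaldehyde against water (vertical axis) and of 15 ppm inhaled against air (horizontal axis) on each of 14217 genes, both at 6 h and in log2 units, with the dotted line marking equal effects. Red points mark 103 genes with a higher and blue points 46 genes with a lower instillation effect; black points mark named genes near the line, such as Areg and Uts2r.

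Between the 4 water animals and the 4 air animals of the same set of arrays, 4 probe sets (0.0129%) and 3 genes (0.0211%) were called, Hs3st1, Ipo7 and Lig1, all higher after water, by 0.87, 0.45 and 0.43, although 3216 probe sets had an unadjusted p under 0.05. Leaving out 1 animal moved the 4 probe sets to between 1 and 15, the latter without water animal 352. Over the 58 lists the median of water minus air ran from -1.36 (olfactory epithelium) to 0.49 (basal and squamous epithelium). In both of these lists 0 genes were called. Such shifts between the control groups enter the comparisons against air and against the 15 ppm effect. Aqp5 was 0.67 higher after water without passing the test (adjusted p = 0.0978), and against air, in place of water, formaldehyde changed it by 0.0078 (adjusted p = 0.979), so its fall was called only against water. Beside those named above, Bmp7 (-0.32), Etfdh (-0.09), Fst (0.42), Gstm2 (-0.23), Lta4h (-0.15), Mmp10 (0.16) and Mthfd1 (-0.23) were not called against air. The same held for Mx1 (0.85), Pla2g4a (-0.35), Pmp22 (-0.66), Sdha (-0.14), Stip1 (-0.04) and Utp20 (-0.14). Cxcl1 and Cxcl2 lay 0.97 and 1.01 higher after water (adjusted p = 0.436 and 0.622), without passing the test.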

How the data were processed

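Total RNA of each of 98 rats was measured on 1 Affymetrix Rat230_2 array. The deposited values are log2 expression values, 1 per probe set and array. How the authors summarised and normalised the scans is, in the sources used here, not given. The values were used as deposited, from 2.7243 to 14.8271 over the 8 instillation arrays, with array medians of 5.9346 to 6.0011. Depth does not apply to arrays, and 4 arrays a group limit the precision. Groups came from the sample titles. 57 control probe sets were left out and 31042 tested.

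Probe sets took symbols from the platform annotation through gene IDs (20758), accessions (2) or the symbol given (66). 436 had several symbols, 9780 had none, and none of these was named. Each gene was read from the brightest of its probe sets, by the mean of 98 arrays, which left 14217 genes, 4525 of them with several probe sets. All arrays and 24 groups entered 1 limma fit (limma 3.58.1, R 4.3.3; 74 residual degrees of freedom), with moderated tests, Benjamini-Hochberg adjustment over probe sets and a call at an adjusted p under 0.05. The fit was tested on simulated data in which every group had the same spread for a given probe set. A wider spread among the formaldehyde arrays was not simulated. Nothing in the labels says that rats were housed or exposed independently. The limma p-values measure the spread between animals within groups, pooled over all 24 groups. They do not measure the spread of the 8 instilled animals alone, with which 3649 probe sets were called in place of 6892. The source names in the labels place the water, formaldehyde, 15 ppm and air groups in the later set of 16 arrays, so array set and these groups are not confounded. Figures and promoter searches used Python 3.11.15, matplotlib 3.10.9, numpy 2.4.6 and scipy 1.17.1, and promoters came from the RefSeq table of GRCr8.

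The members, the 58 lists (939 of 1074 entries on the array, 915 distinct genes) and the tests were chosen with earlier results of these data known. Named are the 15 largest rises and 15 largest falls without overlap between groups, up to 6 called members of each list by smallest p and every called member where 5 or fewer were called, the 10 smallest p for the difference from 15 ppm, and fixed control genes. Other members of the lists and genes outside them were named after their values were seen. Alternatives covered the arrays fitted, normalization, prior, weights, a filter on dim probe sets (mean log2 under 6), a 2-fold limit, the air control, single animals left out, further probe sets and, chosen after seeing the data, pairs of animals left out.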

Additional observations from a re-analysis of the deposited data

Results flagged for a closer look

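The instillation effect differed from that of 15 ppm, by the difference term of the limma fit (adjusted p under 0.05 over all probe sets), in 65 of the 332 genes whose instillation change is described. Each number in brackets in this paragraph is the instillation effect minus the 15 ppm effect in log2 units. Differences of 2 or more were measured for Il1a (4.01), Cxcl11 (3.84), Csf3 (3.50), Ccl3 (3.37), Cxcl10 (3.34), Ccrl2 (3.25), Ebi3 (3.24), Olr1 (3.22), Ccl7 (3.18), Ccl2 (3.11), Il6 (3.11), Ifit3 (2.96), Ccl4 (2.89), Cxcl6 (2.73), Isg15 (2.60), Il1rn (2.56), Tnf (2.30), Bcl2a1 (2.28), Tnfaip3 (2.26), Tlr2 (2.16), Osm (2.15), Il23a (2.08) and Oasl (2.03). Smaller positive differences were measured for Siglec5 (1.84), Ccl6 (1.80), Clec7a (1.79), Neurl3 (1.79), Cxcr2 (1.76), Ccl9 (1.74), Pde4b (1.73), Nfkbiz (1.64), Birc3 (1.62), Usp18 (1.62), Cxcl3 (1.60), Tnfrsf1b (1.60), Oas1a (1.50), Crem (1.44), Slc16a3 (1.37), Nfkbia (1.26), Fas (1.21), Fcgr1a (1.17), Gch1 (1.08), Nfil3 (1.08), Il10ra (1.07), Hspa1a (1.06), Zfand2a (0.95), Casp4 (0.72), Hspe1 (0.42) and Hspd1 (0.35). The difference was negative for Kcnj1 (-1.72), Ccnd2 (-1.59), Gpr155 (-1.52), Nat8f3 (-1.38), Tsku (-1.37), Osgin1 (-1.31), Fam107a (-1.28), Nat8f5 (-1.20), Bcr (-1.18), Znrf3 (-1.06), Tox3 (-1.04), Fut8 (-0.95), Per2 (-0.76), Hey2 (-0.75), Jag2 (-0.62) and Stip1 (-0.52). Among them, Il1a had the largest positive value and the potassium channel Kcnj1 the most negative. Why the routes differed was not tested.

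Of 668 groups of 4 animals examined, 37 had 1 animal apart from the other 3 by Dixon's test, where chance alone marks about 1 in 20 groups. After formaldehyde, animal 372 stood apart for Adamts15 (5.70), Csf1r (8.45), Fosl1 (7.69), Hpgd (8.58), Maff (8.53), Myb (6.06), Plk2 (8.66), Rrs1 (8.31), Slc2a1 (10.94), Spry1 (8.50) and Xbp1 (11.92). Animal 365 stood apart for Alox5 (5.31), Bach1 (4.71) and Ccr3 (3.88), animal 369 for Cdkn1a (11.59) and Usp18 (7.58) and animal 374 for Cflar (9.19), Inhba (7.98), Lif (4.55) and Omp (8.64), each value being that animal's log2 level. After water, animal 354 stood apart for Azin1 (9.98), Cxcl9 (4.62), Hey1 (10.23), Idi1 (10.69), Omp (9.01), Ptger2 (6.67) and Tef (9.00), animal 352 for Gnl3 (8.82) and Per1 (8.78), animal 355 for Hpgd (10.27) and S100a8 (8.53) and animal 356 for Adam17 (8.51), Adm (7.93), Gch1 (8.86) and Lcn2 (5.33). The RNA integrity number stood apart in formaldehyde animal 369 (8.40) and in water animal 352 (7.50).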

How the results depend on the processing

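No paired analysis was possible because 1 array was made per rat and the animal numbers of the labels are not shared between groups. With only the 8 instillation arrays in the fit 3649 probe sets were called (1500 rises and 2149 falls, 900 and 1226 as genes), and asking for a 2-fold change left 771 (469 and 302, 298 and 129 as genes), against 6892 (3052 and 3840) in the fit of all 98 arrays. Air in place of water as the control gave 2545 gene rises. With animals 369 and 372 alone, an alternative chosen after seeing the data, 4528 probe sets were called (1836 rises, 1048 as genes). Leaving out 1 animal gave 5138 to 7061 probe sets. For the difference from 15 ppm, the 16 arrays of the later set alone gave 84 probe sets and 65 genes, animals 365 and 374 alone 1378 and 644, and leaving out 1 animal 104 to 574 probe sets and 61 to 274 genes, against 273 and 149. The lowest were without formaldehyde animal 374 (104), water animal 352 (167) and water animal 355 (172), and the highest without 369 (484) and 372 (574). Against air, water gave 0 probe sets with 16 arrays, 12 with centred arrays, 10 without dim probe sets, 352 with array weights, and 1 to 15 with 1 animal left out, against 4. The absorbance difference was -1.483 to -1.068 with 1 animal left out, with an exact permutation p of 0.0286 without any 1 formaldehyde animal and of 0.0571, which misses 0.05, without any 1 water animal.

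Some of the genes described turned sign, from small values or from larger ones. The larger ones included Tox3 (-1.67), Gpr155 (-1.54), Per2 (-1.07) and Sox2 (-1.07) on their brightest probe sets. Against air in place of water, Aqp5 (0.01), Cat (0.06), Aldh2 (0.09), Csf1r (0.12), Krt5 (0.16), Lss (0.02), Nqo1 (0.20), Scnn1a (0.14) and Mdm2 (-0.09) turned, as did the medians of erythroid (0.32) and muscle genes (0.23). Cyclic loess turned Csf1r (0.09) and Scgb1a1 (-0.0030), and array weights turned Krt5 (0.01). With 1 animal left out, Csf1r ranged from -0.16 to 0.07, Krt5 from -0.32 to 0.12, Scgb1a1 from -0.15 to 0.22 and Muc5ac from -0.28 to 0.63, and Mki67 reached -0.04. With animals 369 and 372 alone Csf1r was 0.13, Krt5 0.34, Mki67 -0.05, Tgfa -0.03 and the Wnt and TGF-beta median 0.02. With animals 365 and 374 alone Il1r1 was 0.15, Jun -0.03, Nqo1 0.03 and Ptgs1 0.09, and the medians of death genes -0.06, Notch signals -0.19, class II -0.03 and muscle 0.35. Leaving out dim probe sets turned the medians of Notch signals (-0.13) and airway transcription factors (-0.10), and leaving out 1 animal those of airway transcription factors (-0.10 to 0.08), death genes (-0.06 to 0.22), secretory cells (-0.02 to 0.37), class II (-0.04 to 0.29) and muscle (-0.22 to 0.35). Another probe set turned Aldh5a1 (-0.35), Cyp26b1 (0.03), Egfr (0.30), Fas (-0.08), Gpr155 (0.12), Hlf (0.09), Il1r1 (0.07), Inhba (-0.02), Mdm2 (-0.02), Nrg1 (-0.01), Per2 (0.16), Sox2 (0.18), Srebf2 (0.08) and Tox3 (0.03). The causes of these shifts were not tested. The 4 arrays a group limit the precision, and no value of signal over background was available, so a dim probe set bounds a level poorly.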

Other observations

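Several of the larger rises after instillation lay outside the gene lists, and most of the genes in this paragraph and the next were chosen after their values were seen. Ccr1, a chemokine receptor of monocytes and neutrophils, read 7.04, 8.27, 8.96 and 9.30 after formaldehyde and 4.98, 5.11, 4.78 and 4.77 after water, 11.2-fold higher (adjusted p = 5.97e-11). Ebi3, a subunit shared by interleukin-27 and interleukin-35, rose 10.0-fold and changed by 0.089 on the log2 scale at 15 ppm (difference 3.24, adjusted p = 0.000353). Map3k8, a kinase that links NF-kappaB and MAP kinase signals, rose 9.26-fold. Zfand2a, a proteasome partner induced by arsenite and heat, was even across animals (10.47, 10.25, 10.11 and 10.14 against 7.46, 7.28, 7.43 and 7.75, 6.78-fold, adjusted p = 2.25e-22). Pde4b, a phosphodiesterase, rose 3.41-fold and Crem, an inducible repressor, 4.27-fold, with Pde4b highest in animal 374 (9.15, 9.28, 9.46 and 10.57 against 7.92, 7.90, 7.86 and 7.70). Pde4b changed by 0.04 at 15 ppm (difference 1.73, adjusted p = 1.51e-07). Neurl3, a ubiquitin ligase, rose 4.03-fold, and Gch1, the entry enzyme of biopterin synthesis, 3.72-fold. Slpi, a protease inhibitor of airway secretions, rose 4.81-fold (10.76, 11.19, 12.03 and 12.16 against 9.11, 9.00, 9.43 and 9.54, adjusted p = 0.00077), and the acute phase protein Saa3 rose 6.95-fold (7.98, 7.50, 9.91 and 10.26 against 5.86, 5.92, 6.22 and 6.47).

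The larger falls with no overlap between groups belonged to no single list. Tsku, a secreted inhibitor of Wnt and BMP signals, read 8.47, 8.77, 8.38 and 8.57 against 10.37, 10.48, 10.41 and 10.27 and fell by 1.83 (adjusted p = 6.61e-14). Znrf3, which removes Wnt receptors from the surface, fell by 1.36 (adjusted p = 5.88e-10). The N-acetyltransferase relatives Nat8f5 and Nat8f3, whose near-identical copies the probes may share, fell by 1.80 and 1.46. Fam107a, an actin-binding stress protein, fell by 1.75 (8.16, 7.70, 7.75 and 8.35 against 9.89, 9.89, 9.74 and 9.42), Gpr155 by 1.54 on its brightest probe set, with another at 0.12, and Fut8, which adds the core fucose to glycoproteins, by 1.28. Ppp2r2b, a phosphatase subunit, read 8.35, 7.92, 7.27 and 8.00 against 9.46, 9.14, 9.24 and 9.42 and fell by 1.43. Prr5l, a partner of the mTORC2 kinase, fell by 1.45 and Klhdc7a fell by 1.49. Bcr, a regulator of small GTPases, fell by 1.41 but read 6.65, 8.27, 8.47 and 6.94 against 9.23, 8.68, 9.19 and 8.87, with animals 365 and 374 more than 1 below the other formaldehyde animals. Sema3e, a guidance ligand, fell by 1.48 and the matrix protease Adamts15 fell by 1.52, and at 15 ppm by 0.86 and 1.06. The instillation effect was lower than that of 15 ppm for Tsku, Nat8f3, Nat8f5, Fam107a, Znrf3, Fut8 and Gpr155 (differences -1.37, -1.38, -1.20, -1.28, -1.06, -0.95 and -1.52).

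Glucocorticoid-responsive genes rose in 7 of 14 cases and fell in 1 (median 0.55): Pdk4, which spares glucose, rose 3.76-fold (8.01, 7.02, 5.99 and 7.48 against 5.44, 5.26, 5.26 and 4.90), Cebpd 3.06-fold on its brightest probe set, Angptl4, an inhibitor of lipoprotein lipase, by 0.71, and the receptor Nr3c1 fell by 0.63. Further probe sets of Cebpd read 1.51 (called) and 0.18 (not called) and one of Nr3c1 -0.21 (not called). Among junction genes Cldn4 rose by 0.75 while Cldn3 and Cldn8 fell by 0.52 and 0.94. Among Wnt and TGF-beta signals Inhba and Fst rose by 1.29 and 0.45 and Tgfb3 and Bmp7 fell by 0.82 and 0.51, with animal 374 far above the others for Inhba (5.24, 5.55, 5.40 and 7.98 against 4.61, 4.76, 4.96 and 4.71). The Inhba rise was 0.64 and not called without animal 374, nor was it called without any 1 water animal (1.24 to 1.35) or on a further probe set (-0.02), and the fall of Bmp7 and the rise of Fst also lost their calls on leaving out single animals (-0.42 to -0.34 and 0.36 to 0.45), and Cldn4 lost its call without animal 369 (0.67). Matrix metalloproteinase genes rose in 5 of 18 cases. Nuclear oxidative phosphorylation genes rose in 3 of 19 cases, Ndufb5, Ndufv1 and Ndufb8, by 0.24, 0.19 and 0.31. Leaving out single animals lost each call, Ndufb5 for 365 (0.18) and Ndufv1 for 365, 369, 352 or 355 (0.15 to 0.17). Ndufb8 lost its call for 365, 369, 372, 374, 352 or 355 (0.26 to 0.32). In the same list 1 gene fell (Sdha, by 0.23, not called without 5 single animals, -0.22 to -0.19). Folate and serine genes rose in 2 of 16 and fell in 1 (Mthfd1, not called against air, -0.23). Mat2a rose by 0.53, with 2 further probe sets at 0.15 and 0.54 that were not called. Shmt2 rose by 0.39, not called without 369, 372, 352 or 355 (0.28 to 0.38). Aldo-keto and carbonyl reductases fell in 2 of 14 besides the rises of Cbr1 and Cbr3. Of mast cell and eosinophil genes Siglec5, also carried by neutrophils, rose 4.59-fold, Ccr3 rose by 0.36 and Hdc, histidine decarboxylase, fell by 0.65 (not called without 365, 372, 354, 355 or 356, -0.66 to -0.57). Ccr3 was dim, at 3.88 to 4.23 after formaldehyde. Of other tissue markers, 1 of 8 class II genes rose (RT1-DMa, by 0.46, not called without 372, 352 or 355, 0.37 to 0.40), 1 of 8 erythroid and platelet genes rose (Ppbp), 1 of 9 Schwann cell genes fell (Pmp22 fell by 1.24, and by 0.66 without a call against air), and 0 of 12 muscle genes and 0 of 7 simple keratins were called (limma, adjusted over all probe sets; the unadjusted p was under 0.05 for 1 of the 12, Myh1, and 1 of the 7, Krt20).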
